A study of Arabidopsis thaliana with 8 samples.

Results

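Differentiating xylem of the Arabidopsis root was set against phloem and cortex as one side, to describe the genes that both of these populations held at a similar level and xylem held at a lower one. A probe set (the group of array probes that reads 1 transcript) was a member when its phloem mean and its cortex mean each lay at least 1 log2 unit above its xylem mean and within 1 log2 unit of each other, on the scale log2(intensity + 16). Of 22746 probe sets, 2200 (9.67%) met this rule. The opposite pattern, with xylem at least 1 log2 unit above both and phloem and cortex within 1 log2 unit of each other, was met by 995 (4.37%). Without the limit between phloem and cortex the number was 1303, and genes named below as on the opposite side are of this wider kind. Because the measured means chose the members, their differences from xylem are given as a description with a standard error (SE), and the contrast is not used as a test of them.

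The 8 Affymetrix arrays came from 3 cell populations of wild type columbia seedlings: phloem sieve cells and companion cells (n = 2 arrays), cortex (n = 3) and differentiating xylem (n = 3). All seedlings were 6 days old and had grown vertically at 22 degrees Celsius with 16 hours of light and 8 hours of dark, on medium with sucrose. Root tips of about 1 cm were turned into protoplasts, and cells that carried green fluorescent protein (GFP) from a marker line for each population were collected on a cell sorter. Arrays of the same population are biological replicates per the labels, which name neither the GFP lines nor their promoters.

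Differentiating xylem cells lay down thick secondary walls and then die, leaving hollow vessels that carry water. Phloem moves sugars through sieve cells that depend on companion cells, and the cortex is the living ground tissue around the stele. Root plastids are largely non-green, but they carry the plastid genome and house steps of amino acid, lipid and starch metabolism. Cells of the Brassicaceae, the cabbage family, also hold ER bodies, compartments of the endoplasmic reticulum filled with a beta-glucosidase, an enzyme that can split the sugar from defence compounds such as glucosinolates.

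Members with a name included genes of the ER body with its beta-glucosidase PYK10, the glucosinolate transporter GTR1, transcripts of the plastid genome, plastid proteins encoded in the nucleus, thioredoxins and a methionine sulfoxide reductase, some U-box ubiquitin ligases, and subunits of RNA polymerases and RNA processing complexes. The members' mean difference from xylem (the mean of the phloem and cortex means minus the xylem mean, called the contrast below) had a median of 1.70 log2 units, with quartiles of 1.41 and 2.16 and a highest value of 5.34. The median over all probe sets was 0.17. The smaller of the 2 differences from xylem reached 2 log2 units in 514 members, 3 in 87 and 4 in 18. The phloem mean was the higher one in 1067 members and the cortex mean in 1133.

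Of the members, 2188 passed an adjusted p of 0.05 in the contrast (limma, Benjamini-Hochberg over all probe sets) and 12 did not. Over all probe sets 32.8% were called higher in phloem and cortex and 14.7% lower. Every phloem and cortex array lay above every xylem array in 2168 members, beside 26.0% of all probe sets. These shares follow from the rule and nothing is read from them. Phloem and cortex differed from each other in 210 members, against 27.0% of all probe sets, which the limit of 1 log2 unit between them also sets.

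**Figure D1:**
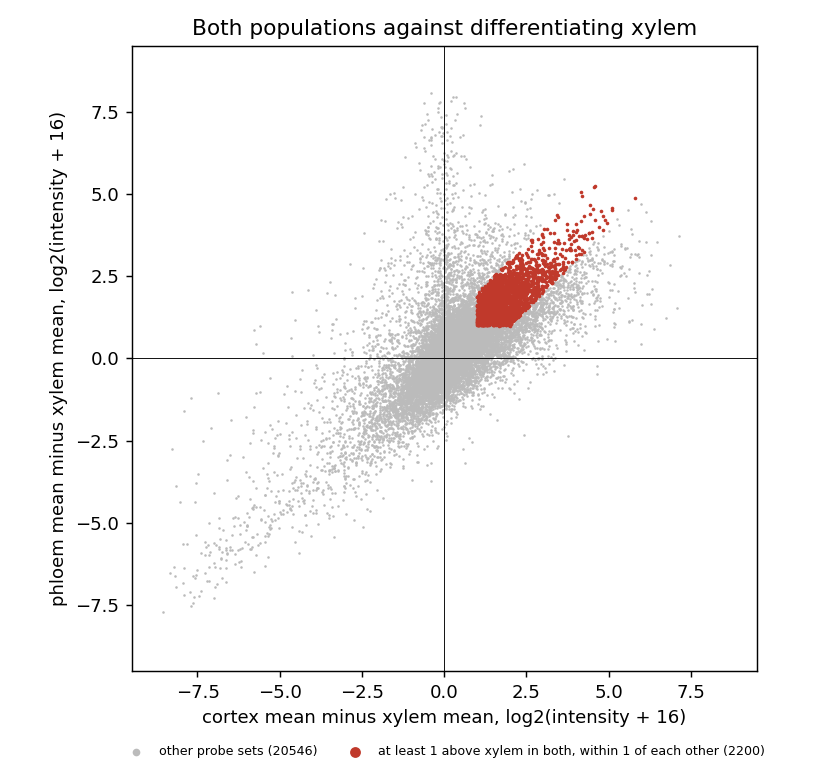
Each point is a probe set, with its cortex minus xylem difference on the x axis and its phloem minus xylem difference on the y axis, both in log2(intensity + 16). The 2200 members, in red, fill the band at the upper right where both differences are at least 1 and lie within 1 of each other, and all other probe sets are grey.

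The annotation gave 1 gene for 1170 members (1166 different genes) and several for 71. The other 959 (43.6%, against 38.4% of all probe sets) were not listed in the annotation used and are unnamed here. A symbol was available for 174 members, so the account by function below rests on a small share of them, and 996 carried only a locus tag. Genes outside the planned lists and the leading 20 were chosen after their values were seen. So were the families of organelle genomes, ER body genes, beta-glucosidases, and glucosinolate synthesis and transport. The same holds for methionine sulfoxide reductases, thioredoxins, chlorophyll and heme synthesis, plastid chaperonin and division, and nuclear genes for photosystem proteins. It also holds for U-box ligases, other ubiquitin enzymes, nuclear RNA polymerase subunits, LSM proteins and phosphatidylcholine synthesis. Counts within these families are a description. In every family and list, measured means matched by name or locus to a probe set with 1 gene. Further genes may lie on the array under probe sets not listed, with several genes or with only a locus tag. The counts therefore need not cover whole families. Shares over all probe sets were 9.67% members, 32.8% called higher and 14.7% called lower. Nothing is read from a family near them.

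The defining markers that were measured followed the labels in their summed intensity, which bright genes can carry. Matched to a probe set with 1 gene were 7 of 25 listed phloem loci, 5 of 7 for cortex and 5 of 27 for xylem. The other loci may still be read by unlisted probe sets. In the contrast 6 of the 7 phloem markers and 4 of the 5 cortex markers were called higher. OPS (phloem) and AT1G62500 (cortex) were dim on every array, at 4.21 to 4.99 and 4.36 to 5.67. All 5 measured xylem markers, among them the xylan synthesis genes IRX15 and GUT2, were lower in phloem and cortex, and their summed intensity was 15372 to 17571 in xylem arrays, 295 to 312 in phloem and 353 to 567 in cortex. The 7 phloem markers summed to 4727 to 4990 in phloem, 319 to 364 in cortex and 148 to 214 in xylem, and the 5 cortex markers to 3848 to 4852 in cortex, 143 to 154 in phloem and 39 to 71 in xylem. None of these markers was a member. Of other cell types, the 3 endodermis markers summed to 466 to 761 in cortex, 272 to 303 in phloem and 92 to 100 in xylem, and 1 of them, AT1G61590, was a member. The 2 root hair markers (EXPA7 and EXPA18) reached 270 to 400 in phloem, 94 to 133 in cortex and 18 to 53 in xylem, and the 2 pericycle markers (LBD16 and LBD29) 436 to 734, 176 to 209 and 92 to 100. In summed intensity the markers of these 3 other cell types were thus lowest in xylem, as the members are, and their part in the results was not tested. By gene, 2 of the 3 endodermis markers were called higher, and AT1G14580 was dim on every array (4.11 to 5.39). The loci matched were 3 of 13 for endodermis, 2 of 10 for epidermis and root hair and 2 of 5 for pericycle. In sorted bulk samples, fewer cells of a type and less RNA per cell cannot be told apart.

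The overall level of the arrays also moved with the populations. The median intensity was 41.2 to 42.7 on xylem arrays, 61.4 to 62.4 on cortex and 70.3 to 73.6 on phloem. The size of the member list therefore depends on how arrays are scaled: it was 1012 when each array was centred on its median (979 of the 2200 kept), 1353 after quantile normalization (1308 kept) and 2717 after scaling to the spiked-in control transcripts (1641 kept). With the deposited values 69.1% of the called probe sets were higher in phloem and cortex, against 49.8% with quantile normalization, 32.5% with median centring and 84.9% with spike-in scaling. The contrast's median over every probe set, 0.17 as deposited, became -0.04, -0.35 and 0.47 in the same order. Each difference below is on the deposited scale and is to be read against that 0.17.

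**Figure D2:**
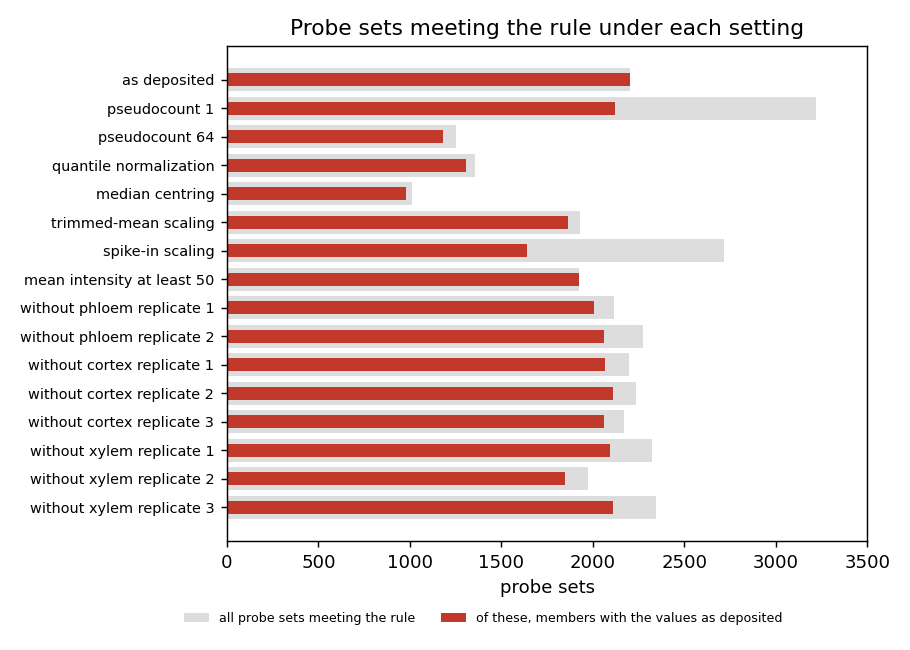
Grey bars give the number of probe sets that met the rule under each setting, and red bars the number of these that were members with the deposited values. The list runs from 1012 under median centring to 3220 with a pseudocount of 1, and from 1972 to 2343 when 1 array was left out.

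Xylem replicate 2 stood apart from the other xylem arrays. It was the lowest xylem array in 1351 members (61.4%, against 41.4% of all probe sets), and in 444 members it lay over 1 log2 unit below the mean of xylem replicates 1 and 3. Its GAPDH 3′ to 5′ ratio, a measure of RNA degradation, was 2.63, against 1.53 and 1.82 on the other xylem arrays, 1.21 to 1.49 on cortex and 1.77 to 2.15 on phloem. Its actin ratio (9.69) was also the highest of the 8 arrays, but its ubiquitin ratio (2.10) was above those of the other xylem arrays (1.7 and 1.9), between those of the phloem arrays (2.09 and 2.46) and below those of all cortex arrays (2.66 to 2.81). Without it 1972 probe sets met the rule, and 1847 of these (84.0% of the 2200) were the same ones. Members described below that then no longer met the rule include NRPA2, atpB, PPR596, GSTU28, GH9C3, SMZ, GID1A, PSF2 and U2AF35B. Its part in each result was not tested beyond leaving it out, and the value without it is given where it moved a gene by more than 1.5-fold.

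Genes of the ER body were among the members with the largest differences. PYK10, the main beta-glucosidase of root ER bodies, read 12.56 and 12.41 in phloem, 12.57, 12.77 and 12.59 in cortex, and 9.67, 7.0 and 9.51 in xylem. All phloem and cortex arrays lay within 0.36 log2 units of each other and above every xylem array, and xylem replicate 2 was the lowest. The contrast was 3.84 (SE 0.54), and 2.97 (SE 0.13) without xylem replicate 2.

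NAI2, a protein needed to form ER bodies, read 10.49 and 10.50 in phloem, 10.35, 10.67 and 10.94 in cortex, and 6.92, 5.72 and 7.30 in xylem. NAI1, the bHLH transcription factor that ER body formation depends on, read 8.07 and 7.80, then 8.37, 8.54 and 9.17, then 6.34, 5.24 and 6.21. In both genes every xylem array lay below all others, and the contrasts were 3.93 (SE 0.33) for NAI2 and 2.38 (SE 0.29) for NAI1. JAL34, a jacalin-related lectin of the family that associates with PYK10, read 11.82 and 11.78 in phloem, 12.16, 12.17 and 12.36 in cortex and 8.96, 6.68 and 9.0 in xylem. As with PYK10, the xylem arrays lay below all others with replicate 2 lowest, and the contrast of 3.81 (SE 0.48) became 3.04 (SE 0.12) without it.

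Not all of the lectins shared this pattern. Among the 7 ER body genes measured, a family put together after the values were seen, 4 were members, 6 were called higher and none lower. JAL33 was higher than xylem in both populations but much higher in cortex, with 9.52 and 9.27 in phloem, 11.18, 11.50 and 11.19 in cortex and 7.49, 7.46 and 7.69 in xylem. JAL22 stood above xylem in cortex alone, where it read 7.38, 7.90 and 8.40 against 4.99 and 5.06 in phloem and 4.2, 5.10 and 4.93 in xylem. JAL23 was dim on every array, between 4.17 and 5.19. Phloem minus cortex was -1.89 for JAL33 and -2.87 for JAL22. Under median centring 6 of the 7 were still called higher, and JAL23 was called lower.

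PYK10 was also set beside the other beta-glucosidases of its family. Of 22 measured, 2 were members, near the 9.67% of all probe sets, 10 were called higher and 2 lower, with a median contrast of 0.32. Under median centring 1 was a member, 3 were called higher and 8 lower, and the median was -0.20. The other member was BGLU25, at 9.56 and 9.35 in phloem, 9.13, 9.23 and 9.18 in cortex and 8.04, 7.50 and 8.00 in xylem, a contrast of 1.47 (SE 0.16). BGLU41 went the other way, with a contrast of -3.78.

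**Figure D3:**
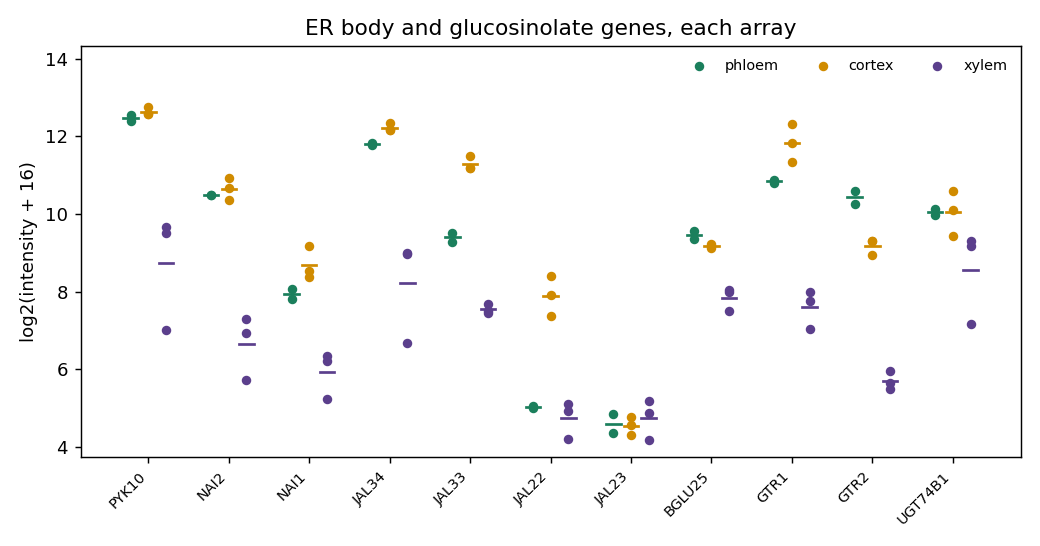
Points are single arrays of ER body and glucosinolate genes in log2(intensity + 16), coloured by population, and the short lines are population means. In PYK10, NAI2, NAI1, JAL34 and GTR1 the phloem and cortex points lie together above all xylem points, while JAL33 and JAL22 are highest in cortex and GTR2 in phloem.

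Transport of glucosinolates, sulfur-rich defence compounds that move through the plant's vessels, showed the same order. GTR1, a glucosinolate importer of the NPF family, read 10.80 and 10.88 in phloem, 11.34, 11.82 and 12.33 in cortex, and 7.75, 7.03 and 7.99 in xylem, with no overlap and a contrast of 3.74 (SE 0.27). Its close relative GTR2 was just as far above xylem but no member, because phloem (10.60 and 10.26) exceeded cortex (8.95, 9.30 and 9.31) by more than 1 log2 unit. Its xylem values were 5.63, 5.49 and 5.95, and the contrast was 4.12 (SE 0.17). The pair leaned to opposite sides, GTR1 to cortex and GTR2 to phloem. Of the 12 measured genes in the list of ion and nitrate transporters that holds both, GTR1 was the sole member, 7 were called higher and 1 lower.

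UGT74B1, the glucosyltransferase that adds the sugar in glucosinolate synthesis, was a member by a narrow margin. It read 9.98 and 10.14 in phloem, 9.44, 10.10 and 10.59 in cortex and 9.17, 7.16 and 9.31 in xylem. Every xylem array lay below all others, but cortex replicate 1 and xylem replicate 3 were only 0.13 log2 units apart. Without xylem replicate 2 the contrast fell from 1.5 (SE 0.49) to 0.81 (SE 0.27), below the rule. Of the 7 genes grouped for glucosinolate synthesis and transport, 2 were members, 3 were called higher and 1 lower (2 and 2 under median centring). The lower one was BCAT4 (-0.57), which starts chain elongation of methionine.

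The plastid genome was the largest named group, collected after the values were seen because the lists planned for it matched no name in the annotation. Of 69 plastid-encoded genes, 25 were members and 37 stood at least 1 log2 unit above xylem in both populations. In the contrast 58 were called higher, none lower and 11 were not called, with a median of 1.63 against 0.17 for all probe sets. Phloem and cortex did not hold these transcripts at one level: all 12 genes that were 1 log2 unit above xylem in both but no members were higher in phloem. Phloem exceeded cortex in 33 of the 69 genes with none the other way (adjusted p under 0.05, limma), beside 12.2% of all probe sets called higher in phloem.

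The summed signal gives the same order by array. Plastid-encoded probe sets took 0.89% and 1.01% of all intensity on the phloem arrays, 0.52%, 0.49% and 0.51% on the cortex arrays and 0.21%, 0.19% and 0.18% on the xylem arrays. In this share the 3 populations did not overlap, and xylem replicate 2 lay between its 2 fellows. In the median level of these genes it was the lowest xylem array, at 6.25 against 6.56 and 6.47. Under median centring 47 of the 69 were called higher and 2 lower, and under quantile normalization 49 and 1. Without xylem replicate 2 the numbers were 57 and none.

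By complex, photosystem II held the most members, 9 of 15 genes, with 14 called higher. psbZ, a small subunit of that complex, read 10.08 and 10.76 in phloem, 10.49, 10.36 and 10.39 in cortex, and 7.44, 7.74 and 7.05 in xylem, a contrast of 3.00 (SE 0.21). psbL read 8.27 and 8.21, then 8.30, 8.32 and 8.34, then 5.04, 5.46 and 5.28, a contrast of 3.02 (SE 0.15), so its 5 phloem and cortex arrays differed by at most 0.13 log2 units. psbJ had a contrast of 2.87 (SE 0.20). In all 3 the xylem arrays were clear of the rest. psbF (2.82, SE 0.16), psbC (2.64, SE 0.19), psbA (1.80, SE 0.22), psbH (1.64, SE 0.23), psbE (1.51, SE 0.19) and psbB (1.20, SE 0.21) made up the rest of the members. psbL, psbJ, psbF and psbE, which are neighbours on the plastid genome and are known to be transcribed together, were all members. psbD alone of the 15 was not called (0.48, adjusted p = 0.074, limma).

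Photosystem I had 2 members of 7, psaB and psaI. psaB, a core subunit of the reaction centre, read 12.12 and 12.29 in phloem, 12.10, 12.16 and 12.13 in cortex and 9.94, 9.87 and 9.60 in xylem, a contrast of 2.36 (SE 0.14). psaA, the partner subunit that is transcribed with it, read only 5.79 to 6.05 in phloem and cortex and 4.95, 5.52 and 5.91 in xylem, and was not called (0.42, adjusted p = 0.174, limma). The probe sets of this pair thus disagreed. The cytochrome b6f complex, which links the photosystems, had 4 members of 6 (petA, petB, petL and petN, with contrasts from 1.40 to 2.14). The ATP synthase had 2 of 6 (atpA, 2.19, and atpB, 1.54), with all 6 called higher. The NDH complex, a plastid dehydrogenase, had 4 of 10, led by ndhC at 10.61 and 10.86 in phloem, 10.15, 9.71 and 10.01 in cortex and 8.02, 6.68 and 7.25 in xylem.

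Genes for plastid gene expression came next. All 15 plastid ribosomal protein genes were called higher and 7 stood at least 1 log2 unit above xylem in both populations. Of these 7, rps18 (2.06, SE 0.23) and rpl33 (1.61, SE 0.20) were members, and in the other 5 phloem exceeded cortex by more than the rule allows. rps4, no member, read 11.65 and 11.82 in phloem, 10.52, 10.21 and 10.58 in cortex and 8.59, 8.07 and 7.99 in xylem. Of the 4 RNA polymerase genes, rpoA was a member at 2.05 (SE 0.14) and 3 were called higher. rbcL, which encodes the large subunit of Rubisco, stepped down from 9.03 and 9.31 in phloem through 7.99, 7.85 and 7.91 in cortex to 6.56, 6.66 and 6.45 in xylem. In both rps4 and rbcL the 3 populations were separate.

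Genes of the mitochondrial genome gave no such pattern. None of the 16 measured was a member, and none stood 1 log2 unit above xylem in both populations. In the contrast 3 were called higher (ccb382, ccb206 and nad4) and none lower, with a median of 0.22, near the 0.17 of all probe sets. Their median level was 8.02 and 7.92 on the phloem arrays, 7.26, 7.11 and 7.54 on the cortex arrays and 6.90, 8.06 and 6.84 on the xylem arrays. Xylem replicate 2 was thus as high as phloem, and without it 7 of the 16 were called higher with a median of 0.46. Under median centring none was called higher and 2 were called lower. Phloem exceeded cortex in 7 of the 16, so the lead of phloem over cortex was shared by both organelles.

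**Figure D4:**
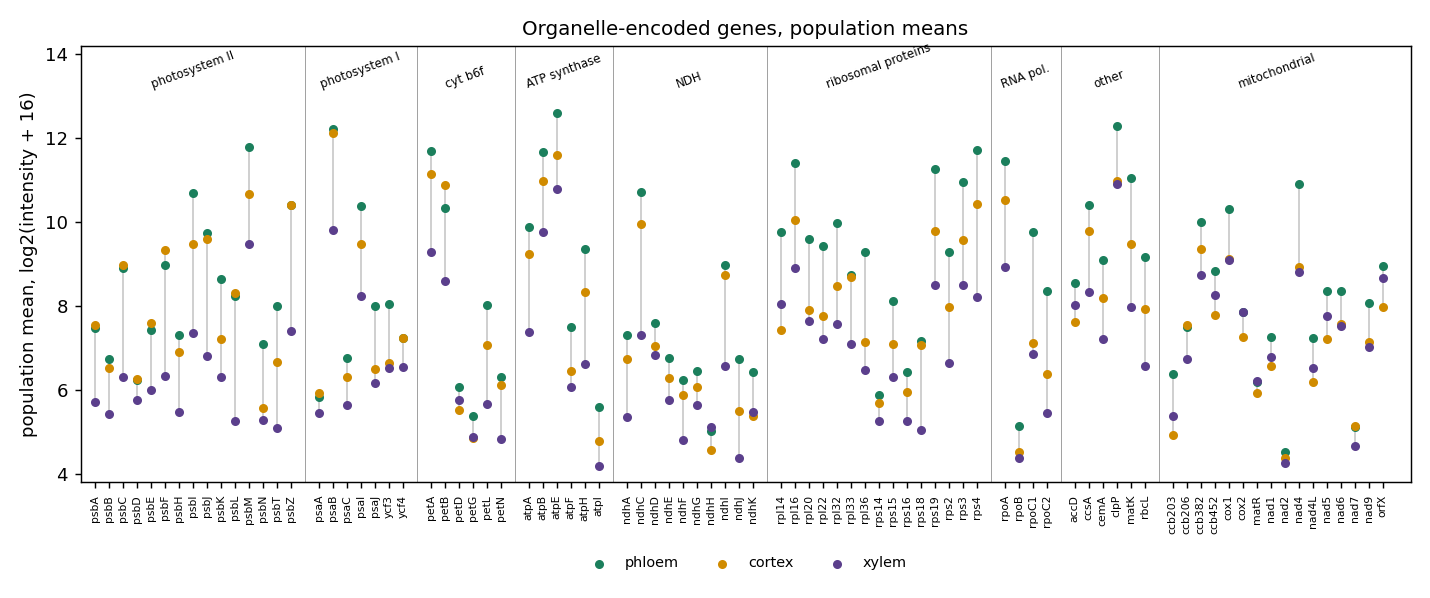
Points are population means of each plastid-encoded and mitochondrion-encoded gene in log2(intensity + 16), grouped by complex, with a grey line over the range. Xylem is the lowest of the 3 means in 63 of the 69 plastid genes and in 8 of the 16 mitochondrial genes at the right.

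Proteins that the nucleus encodes for plastids were also among the members. Cpn60beta3, a subunit of the chaperonin that folds plastid proteins, read 8.79 and 8.69 in phloem, 8.96, 9.17 and 9.04 in cortex and 5.77, 5.20 and 6.28 in xylem, a contrast of 3.14 (SE 0.23). Its relatives Cpn60beta2 (0.29) and Cpn60beta4 (-0.13) were not called, but without xylem replicate 2 Cpn60beta2 turned to -0.50 and was called lower (adjusted p = 0.0177, limma). CHL, a lipocalin of the plastid, read 7.47 and 7.33, then 7.78, 7.58 and 7.80, then 4.23, 4.49 and 4.74, a contrast of 3.07 (SE 0.18). Its xylem values were near the floor of the scale, which is 4 for an intensity of 0, and the contrast ran from 1.75 to 4.65 over the alternatives. The xylem arrays of CHL and Cpn60beta3 lay more than 2 log2 units below every other array.

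CHLM, a methyltransferase of chlorophyll synthesis, had a contrast of 2.54 (SE 0.29) and CHLI2, a subunit of magnesium chelatase in the same pathway, 1.10 (SE 0.13). They were the 2 members among 9 measured genes of chlorophyll and heme synthesis, of which 3 were called higher and 1, HEMA2, lower (-0.85), or 3 and 3 under median centring. FTSZ2-1, a plastid division protein, stood at 1.98 (SE 0.36), TROL, a thylakoid protein, at 2.18 (SE 0.20), HCF101, an iron-sulfur cluster protein, at 1.55 (SE 0.26), and DPE1, a plastid enzyme of starch breakdown, at 2.10 (SE 0.26). In these genes and in CHLM and CHLI2 the lowest xylem array read 4.16 to 4.41, near the floor of 4, where the transform compresses differences. Of 9 photosystem proteins encoded in the nucleus, PSAE-1 (1.67, SE 0.21) and LHCB4.1 (1.43, SE 0.35) were members, 6 were called higher and LHCB4.3 lower (-1.11). None of the 9 met the rule under quantile normalization, median centring or spike-in scaling. The first 2 of these scalings each gave 4 called higher and 2 lower, and spike-in scaling 7 higher and none lower. LHCB4.1 was one of the 32 members with overlapping arrays, at 6.82 in phloem replicate 1 and 6.83 in xylem replicate 2.

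Redox enzymes, which relay electrons to oxidised proteins, made up another list with several members. Of 19 redox genes measured, 7 were members and 13 were called higher, with none lower and a median contrast of 1.49. Median centring gave 3 members, with 11 called higher and none lower. MSRB5, a methionine sulfoxide reductase that repairs oxidised methionine in proteins, read 11.29 and 11.78 in phloem, 11.77, 11.41 and 11.41 in cortex and 7.40, 7.10 and 7.59 in xylem. The 5 phloem and cortex arrays lay within 0.49 log2 units and at least 3.70 above xylem, and the contrast was 4.17 (SE 0.18).

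Its relatives differed in the balance of phloem and cortex. MSRB9 read 11.43 and 11.53 in phloem, 12.32, 12.64 and 12.51 in cortex and 8.06, 4.79 and 8.87 in xylem, and missed the rule because cortex exceeded phloem by 1.01. Its contrast of 4.74 became 3.52 without xylem replicate 2, and 5.56 without xylem replicate 3. MSRB6 leaned to cortex (phloem minus cortex -1.65) and MSRB3 to phloem (1.13), with contrasts of 3.18 and 0.82. MSRA5 was level across the populations (0.06, adjusted p = 0.829, limma).

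Thioredoxins, small proteins that reduce disulfides of target enzymes, were grouped after the values were seen. They gave 4 members among 8 measured, with 6 called higher and none lower. THX, a plastid thioredoxin of the x type, read 7.43 and 7.92 in phloem, 8.23, 8.56 and 8.43 in cortex and 4.31, 4.27 and 4.35 in xylem. The xylem values were near that floor of 4, so the contrast of 3.73 (SE 0.18) rests on a signal close to none in xylem and ran from 2.21 to 5.69 over the alternatives. ATHM2, a plastid thioredoxin of the m type, stood at 1.53 (SE 0.13) and TO1, a mitochondrial thioredoxin, at 1.67 (SE 0.14). NTRC, a plastid reductase with a thioredoxin domain of its own, stood at 1.49 (SE 0.16). The other mitochondrial form, TO2, was level (0.00). PRXIIF, a mitochondrial peroxiredoxin, had a contrast of 1.55 (SE 0.14). GRX480, a glutaredoxin, was one of the 12 members that were not called: its xylem values were 9.73, 7.24 and 9.86, and the contrast of 1.41 (SE 0.56) fell to 0.56 without xylem replicate 2.

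Among enzymes of lipid and primary metabolism, a pair that makes phosphatidylcholine, the main membrane lipid outside plastids, had the values that follow. PMEAMT, a methyltransferase that builds its phosphocholine head group, read 11.89 and 12.16 in phloem, 11.32, 11.26 and 11.93 in cortex and 8.28, 8.61 and 8.58 in xylem, a contrast of 3.28 (SE 0.19). AAPT2, which joins the head group to diacylglycerol, read 10.37 and 9.78, then 10.21, 10.19 and 10.13, then 7.48, 7.09 and 7.63, a contrast of 2.72 (SE 0.18). In both, every xylem array lay below all others, while CCT1 (0.10) and CCT2 (-0.10), which activate the phosphocholine between these steps, were not called. GPDHC1, a cytosolic glycerol-3-phosphate dehydrogenase, had a contrast of 3.04 (SE 0.28), with xylem values of 4.32, 4.11 and 5.24 near the floor and a range of 1.74 to 4.82 over the alternatives.

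The list of amino acid and nitrogen metabolism held 1 member among 6 measured genes, with 2 called higher and 1 lower. That member was APS4, an ATP sulfurylase that starts sulfate assimilation (2.62, SE 0.16), while its relative APS3 was not called (0.57, adjusted p = 0.379, limma). Members outside that list, picked after their values were seen, were CBL, a lyase of methionine synthesis (1.86, SE 0.14), and OTC, of arginine synthesis (2.35, SE 0.18). AT-HF and HISN5B of histidine synthesis stood at 1.89 (SE 0.20) and 1.22 (SE 0.17), and PYRB, of pyrimidine synthesis, at 1.76 (SE 0.29). In the list of respiration and central carbon enzymes, 2 of 19 were members: ICDH, an isocitrate dehydrogenase (1.98, SE 0.16), and PDC2, a pyruvate decarboxylase of fermentation (1.87, SE 0.24), while NDB3, an alternative NADH dehydrogenase, was the gene on the opposite side (-3.36). ACYB-2, a cytochrome b561, read 10.77 and 10.81 in phloem, 11.67, 11.56 and 11.34 in cortex and 8.41, 8.21 and 8.35 in xylem (2.84, SE 0.13), and NQR, a quinone reductase, stood at 2.74 (SE 0.16). In both genes every xylem array lay below all others.

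The ubiquitin system contributed to both sides. PUB23, a U-box ubiquitin ligase that dampens immune responses, read 10.02 and 9.72 in phloem, 9.79, 10.98 and 10.89 in cortex and 6.51, 6.17 and 6.78 in xylem, a contrast of 3.73 (SE 0.28) with every xylem array below all others. PUB24, which acts with it, read 8.57 and 8.33, then 7.54, 8.50 and 8.58, then 6.73, 6.63 and 6.63, a contrast of 1.67 (SE 0.24). PUB22, the other ligase of that trio, had a contrast of 3.23 (SE 0.20) but leaned to cortex by 1.18 and was no member. PUB43 was a member at 1.60 (SE 0.38), and its 1.07 without xylem replicate 2 came with a smaller difference below the rule.

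In contrast PUB25 and PUB26 were higher in xylem. PUB25 read 6.27 and 6.28 in phloem, 5.58, 6.21 and 6.16 in cortex and 8.40, 9.01 and 7.88 in xylem (-2.30), and PUB26 had a contrast of -1.99. Both were picked with their values seen, so these contrasts are a description. Across 9 U-box ligases 3 were members, 2 had the opposite pattern, 4 were called higher and 3 lower, and their median contrast was the 0.17 of all probe sets. UBP23, an enzyme that removes ubiquitin, was the sole member of 12 measured relatives, at 3.09 (SE 0.41) and 2.50 without xylem replicate 2. Of the 12, 4 were called higher and 2 lower, or 1 and 5 under quantile normalization. UBC16 was the sole member of 13 ubiquitin-conjugating enzymes (1.81, SE 0.28), of which 4 were called higher and 6 lower. In both of these families 1 member is near the 9.67% of all probe sets. SKP2A, an F-box protein that targets cell cycle regulators, stood at 2.47 (SE 0.27).

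Nuclear RNA polymerase subunits, grouped after the values were seen, gave 5 members of 12, with 9 called higher and 1 lower. NRPB12, a small subunit shared by the polymerases, read 9.31 and 9.07 in phloem, 8.49, 8.52 and 8.34 in cortex and 6.57, 5.41 and 6.59 in xylem, a contrast of 2.63 (SE 0.27). NRPA1 and NRPA2, the largest subunits of polymerase I, which transcribes ribosomal RNA, stood at 1.16 (SE 0.25) and 1.40 (SE 0.27). NRPB7, of polymerase II, stood at 1.23 (SE 0.18) and NRPD7, of the plant-specific polymerases, at 1.24 (SE 0.22). NRPC2, a large subunit of polymerase III, went the other way, with 7.77 and 7.15 in phloem, 6.59, 6.62 and 6.74 in cortex and 9.28, 9.06 and 9.51 in xylem (-2.23). Under quantile normalization and under median centring 1 of the 12 met the rule and 7 were called higher.

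RNA processing proteins were also among the members. LSM proteins, which form rings that bind U6 RNA or decaying messages, were also grouped after the values were seen. Of 6 measured, 4 were members: LSM3B (2.03, SE 0.19), LSM6A (1.87, SE 0.23), LSM6B (1.73, SE 0.28) and LSM3A (1.09, SE 0.19). LSM3B read 8.80 and 8.66 in phloem, 7.64, 7.98 and 7.59 in cortex and 6.52, 5.87 and 6.22 in xylem, so phloem was highest and no groups overlapped. MAC3A and MAC3B, a pair of related splicing factors, stood at 1.5 (SE 0.22) and 1.44 (SE 0.12), and RRP41, a subunit of the exosome that trims RNA, at 1.53 (SE 0.21). PRH75, a DEAD-box RNA helicase, had a contrast of 2.35 (SE 0.29), and DIM1B, a ribosomal RNA methyltransferase, 1.58 (SE 0.18). TRZ3 and TRZ4, the enzymes that trim the 3′ end of transfer RNA, stood at 1.88 (SE 0.33) and 1.34 (SE 0.17). PPR336 and PPR596, pentatricopeptide repeat proteins of mitochondria, stood at 2.69 (SE 0.20) and 1.54 (SE 0.35). Among 20 histone and chromatin genes HTB1, a histone H2B, was the sole member (2.18, SE 0.19), and 5 were called higher and none lower. That balance turned with the scaling, to 3 higher and 4 lower under quantile normalization and 1 and 8 under median centring.

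Detoxification enzymes were divided. Of 14 glutathione S-transferases, 9 were called higher and 1 lower, and 3 were members. GSTU26 read 10.54 and 10.42 in phloem, 11.29, 11.34 and 11.55 in cortex and 9.04, 6.87 and 8.86 in xylem, and its contrast of 2.68 (SE 0.44) was 1.99 without xylem replicate 2. GSTU28 and ATGSTF13 were dim in xylem and stood at 1.27 (SE 0.34) and 1.42 (SE 0.24). Under median centring none of the 14 met the rule and 8 were called higher. Of 51 UDP-glycosyltransferases 5 were members, near the 9.67% of all probe sets, while 26 were called higher and 4 lower. Median centring gave 3 members there, with 17 called higher and 11 lower.

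GT72B1, a glycosyltransferase that conjugates xenobiotics and phenolic compounds, led that list with 9.52 and 9.84 in phloem, 9.04, 9.69 and 9.17 in cortex and 6.53, 6.37 and 6.57 in xylem (3.00, SE 0.18). UGT71C5, which glucosylates abscisic acid, stood at 2.37 (SE 0.20) and UGT72E1, which glucosylates coniferyl aldehyde, at 1.78 (SE 0.23). The lowest xylem value of UGT72E1 was 4.14, near the floor of the scale, and its contrast ran from 0.81 to 3.5 over the alternatives. UGT74F1 and UGT87A2 were the genes on the opposite side. CYP71B28 was the sole member of 24 cytochrome P450 genes matched by name, mostly of the CYP71B group (1.54, SE 0.20). Its lowest xylem value was 4.21, and its contrast ran from 0.67 to 3.04 over the alternatives. Of the 24, 10 were called higher and 1 lower, or 6 and 11 under median centring. ALDH6B2 was the sole member of 8 aldehyde dehydrogenases (1.33, SE 0.14). PRXR1, a class III peroxidase, was bright on every array, at 12.47 and 12.55 in phloem, 11.88, 12.03 and 11.71 in cortex and 10.20, 10.32 and 10.33 in xylem (1.91, SE 0.13), with no overlap.

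Wall and cell surface genes were few. ATPMEPCRD, a pectin methylesterase, read 7.70 and 8.05 in phloem, 8.55, 8.95 and 8.64 in cortex and 5.40, 4.25 and 5.66 in xylem (3.19, SE 0.31), and TET2, a membrane tetraspanin, had a contrast of 3.09 (SE 0.14). EXPA9, an expansin that loosens primary walls, stood at 2.78 (SE 0.18) and GH9C3, an endoglucanase, at 1.18 (SE 0.26). They were the 2 members of 45 expansins, xyloglucan endotransglucosylases and endoglucanases, of which 16 were called higher and 5 lower. Under median centring none met the rule, with 12 higher and 15 lower, and quantile normalization gave 14 and 8. CCR2, a cinnamoyl-CoA reductase, met the rule at 1.59 (SE 0.49), but its cortex replicate 1 (5.59) lay between xylem values of 5.43 and 6.11. Without xylem replicate 2 it was not called (1.08, adjusted p = 0.0765, limma). HCT, which makes lignin precursors, was on the opposite side (-2.08).

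Of the transcription factors with a symbol, those among the members came from many families and mostly had small differences. bZIP19, which senses zinc deficiency, read 9.96 and 9.75 in phloem, 9.50, 9.45 and 8.88 in cortex and 7.88, 7.83 and 7.85 in xylem, a contrast of 1.71 (SE 0.17). It was the sole member of 22 bZIP genes, of which 4 were called higher and 4 lower (3 and 12 under median centring). BZIP17 (-1.29) and BZIP28 (-1.23), membrane-bound factors of the endoplasmic reticulum stress response, had the opposite pattern. WRKY53, a factor of senescence and defence, was the member among 7 WRKY genes (1.75, SE 0.23), with 4 called higher and none lower. Under median centring none of the 7 met the rule, with 4 called higher and 3 lower. BHLH101, which acts in iron uptake, was dim in xylem at 4.56, 4.21 and 4.18 and stood at 1.26 (SE 0.14). It was the member among 11 bHLH genes matched by name, a list that missed NAI1 above and LHW (1.17, SE 0.19), which promotes vascular cell divisions. AGL42 (1.93, SE 0.23), a MADS factor, MYBC1 (1.46, SE 0.20), SMZ (1.44, SE 0.19), a flowering repressor of the AP2 family, and HYH (1.56, SE 0.22), a light signalling bZIP that the list missed, were members as well.

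Signalling proteins among the members included CML37, a calmodulin-like protein (2.23, SE 0.27), ATMPK8, a mitogen-activated protein kinase (1.98, SE 0.16), and BIK1, a kinase that acts with immune receptors (1.86, SE 0.26). ATMPK8 read 8.60 and 8.21 in phloem, 8.94, 8.83 and 8.45 in cortex and 6.58, 6.62 and 6.59 in xylem. Its xylem arrays were nearly level and well below the others. For hormones, IAGLU (2.02, SE 0.29) and WES1 (1.20, SE 0.21) conjugate auxin, and GID1A (1.28, SE 0.19) is a gibberellin receptor. WES1 was the sole member of 12 auxin genes, of which 3 were called higher and 3 lower (3 and 6 under median centring), and IAA29 (-5.22) and IAA30 (-1.32) were on the opposite side.

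The 20 members with a symbol that were farthest above xylem in both populations, bright enough to exceed the median probe set and separate on every array, were in order ZW9, MSRB5, NAI2, AQI, PYK10, JAL34, PUB23, THX, GTR1, UBP23, PMEAMT, psbZ, Cpn60beta3, psbL, CHL, TET2, GT72B1, psbJ, ATPMEPCRD and GPDHC1. ZW9 read 11.10 and 10.96 in phloem, 11.61, 11.57 and 11.67 in cortex and 7.30, 5.57 and 6.69 in xylem, a contrast of 4.80 (SE 0.33). AQI, annotated as an aquaporin interactor, read 10.28 and 10.89, then 11.14, 11.10 and 11.28, then 6.52, 6.89 and 6.94, a contrast of 4.10 (SE 0.18). In both, xylem was separate from all other arrays by over 3 log2 units.

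**Figure D5:**
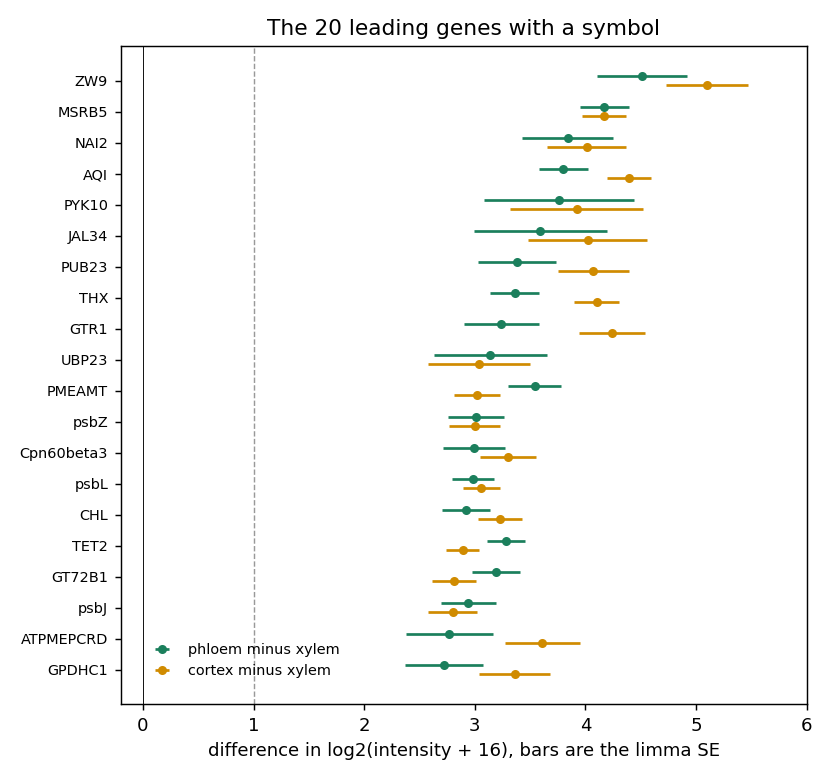
For the 20 leading genes with a symbol, points give the phloem minus xylem and cortex minus xylem differences in log2(intensity + 16), and bars the limma SE. The dashed line marks the 1 log2 unit of the rule. Every point lies beyond 2.7, and PYK10, JAL34 and UBP23 have the widest bars.

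Larger differences were found among genes with only a locus tag, whose function is not given here. AT2G18980 read 10.58 and 10.95 in phloem, 11.14, 9.44 and 9.74 in cortex and 5.52, 5.68 and 5.35 in xylem, a contrast of 4.92 (SE 0.35). AT5G26280 read 11.16 and 11.02, then 10.37, 10.46 and 10.48, then 6.59, 4.90 and 6.15 (4.88, SE 0.33). In both, every phloem and cortex array was over 3 log2 units above every xylem array. AT3G20370 (4.57, SE 0.23), AT2G30990 (4.56, SE 0.24) and AT3G61820 (4.29, SE 0.43) followed, and AT3G61820 stood at 3.67 without xylem replicate 2.

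At the edge of the rule, the members just inside were U2AF35B, PSF2 and LSM3A, with a smaller difference from xylem of 1.00, 1.02 and 1.02. Just outside were MAP1A at 0.99, cemA at 0.99 and VPS2.2 at 0.98. The gap between the 2 sets is smaller than the SE of the contrast of any of these genes, which was 0.16 to 0.30.

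The shares over all probe sets were 9.67% members, 32.8% called higher and 14.7% called lower. Some lists held no member, and in lists this short nothing is read from that. None of 13 exocyst and secretion genes was one, 12 were called lower in phloem and cortex and 4 had the opposite pattern, led by SEC10 (-2.01) and EXO84B (-1.92), both parts of the exocyst that tethers secretory vesicles. Under spike-in scaling 6 of the 13 were called lower and none higher. None of 19 cytoskeleton genes was a member, with 4 called higher and 8 lower, among the latter the actin ACT11 (-4.11) and the tubulin TUB6 (-2.55). None of 11 autophagy genes (4 called higher, 4 lower) was a member, though 3 were under spike-in scaling (5 higher, 1 lower), and median centring gave 2 higher and 7 lower. None of 16 SWEET sugar transporters was one (4 higher, 1 lower, and 3 and 7 under median centring).

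Gene length, which the rule did not use, was set beside that of all genes. The gene length of members had a median of 2109 bases (quartiles 1574 and 2847, 1143 nuclear genes), against 2122 (1414 and 3073) for 13367 measured genes and 2319 for the opposite pattern. The members' intensities come from the means that the rule used and are only described: 388 members had a mean xylem intensity under 16, where the transform compresses differences. When members were chosen without 1 array, 87.2% to 94.0% of them met the threshold of 1 log2 unit in the left-out phloem or cortex array, against 21.3% to 23.4% of all probe sets. For a left-out xylem array the shares were 74.7%, 84.2% and 69.9% for replicates 1, 2 and 3, against 12.9% to 17.2% of all probe sets. The left-out array was set against arrays that had chosen the members, so these shares are partly fixed by the choice. They are a description, and nothing is read from them. Of 14 member genes that a further probe set also measured, 10 had one that did not meet the rule.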

How the data were processed

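RNA from 8 sorted samples was hybridised to Affymetrix arrays. The authors deposited 1 linear intensity per probe set and array, for which the submitters' processing notes name MAS5. Its version and target value were not given in the sources used here, and the table holds no detection calls. The files give no depth, so the number of arrays limits the precision, and p-values measure only the spread between these arrays.

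All 8 columns were used. Of 22810 probe sets, 64 controls were left out and 22746 tested. Intensities were transformed as log2(intensity + 16) with no further normalization, which understates differences of dim probe sets. limma 3.58.1 in R 4.3.3 was fitted to them (a mean for each population, intensity trend, 5 residual and 3.66 prior degrees of freedom). The contrast was the mean of the phloem and cortex means minus the xylem mean, with Benjamini-Hochberg adjustment over all probe sets and a threshold of 0.05. On simulated data with 2 log2 units added to known probe sets, the fit was checked to return the right sign.

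Names came from the platform annotation and RefSeq (13513 with 1 gene, 503 with several, 8730 not listed). A list gene was read from its probe set of highest mean. The members and the gene lists (54, and 24 more added later) were chosen with earlier results of these data known. Named genes were the leading 20 with a symbol, up to 4 members and up to 2 genes from the other side for each list, 5 with a locus tag only, 3 on each side of the threshold and all measured markers. Name patterns also caught unrelated genes: the 48 matches for ERF and AP2 factors (4 members) include clone names, the 16 for cytosolic ribosomal proteins (3 members) are mostly plastid genes, and the 56 for ubiquitin ligases and proteasome (6 members) include other enzymes, so these lists were not used as such. No sequences are shown, and gene lengths come from RefSeq. Python 3.11.15 and matplotlib 3.10.9 drew the plots. Alternatives were other pseudocounts (1 and 64), scalings, a minimum mean intensity of 50, leaving out each array, a replicate block, equal weight for all 5 arrays, calls in both pairs, and no intensity trend.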

Additional observations from a re-analysis of the deposited data

How the results depend on the processing

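The member count of 2200 was 3220 with a pseudocount of 1, 1253 with 64, 1353 after quantile normalization, 1012 after median centring, 514 with both differences at least 2 log2 units and 1465 with phloem and cortex within 0.5, and it ranged from 1972 to 2343 when 1 array was left out. The members called, 2188, numbered 1247 with a pseudocount of 64, 1348 after quantile normalization and 1005 after median centring, and from 1966 to 2312 without 1 array. Over all probe sets 7463 were called higher and 3333 lower. The number higher was 4490 after median centring and 4344 when both pairs had to be called, and 6623 to 7281 without 1 array. The number lower was 9339 with median centring, 5332 with quantile normalization, 1887 with spike-in scaling and 2025 with both pairs called, and 2811 to 3612 without 1 array. Median centring raises the xylem arrays, whose medians are lower, by construction. The cause of the quantile values was not tested, nor was which scaling is right. Where 1 phloem array was left, it was assumed to vary like the others.

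No value named by the rule changed direction. The calls of members are all but fixed by the rule, so kept calls carry no weight. Of 63 named members, 23 met the rule in every alternative that reapplied it, and 4 lost their call in at least 1 alternative. UGT74B1 lost its call in 6 alternatives, CCR2 in 8, GSTU28 in 2 (quantile normalization and median centring) and WES1 in 1 (quantile normalization). The cause was not tested.

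Deviations of same-numbered arrays correlated at -0.001 and -0.031 for phloem and cortex, 0.129 and 0.152 for phloem and xylem, and -0.105, -0.045 and 0.148 for cortex and xylem. Those of different-numbered arrays ran from -0.164 to 0.19. With 2 or 3 arrays per population, the deviations within a population are tied to each other. These values therefore cannot settle whether the replicate numbers pair the arrays. With the replicate block 2193 members, 7270 higher and 3234 lower were called.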
